A study of Mus musculus with 7 samples.

Results

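The genes described here are 10 genes of the resting alveolar fibroblast and lipofibroblast, Tcf21, Inmt, Npnt, Limch1, Gpc3, Gdf10, Adh1, Plin2, Meox2 and Foxf1, out of 55401 genes in the deposited count table. They were taken by name from a list of genes of this cell state, with gene symbols from GENCODE vM21, and each was found once in the table. Lung tissue of 7 male C57BL/6 mice was studied by RNA-seq with 1 library per mouse. The study's methods give an age of 6 to 8 weeks for the mice used to make the fibrosis model. All 7 mice had received bleomycin, a drug that breaks DNA and, in the airways, is followed by lung injury and fibrosis. The 4 mice of the BLM group had no further treatment with oxygen, and the 3 mice of the BLM+HBO group breathed hyperbaric oxygen (HBO, oxygen under raised pressure in a chamber) at 2.5 ATA for 90 min a day on 14 days from day 7 after bleomycin. Lungs of both groups were taken on day 21. For the BLM mice, the sample labels describe time in the chamber without oxygen under pressure, whereas the study's methods describe no treatment. Lungs without bleomycin were not analysed here, so no value below can be set against a healthy lung, and both groups carry the injury.

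Alveolar fibroblasts line the walls of the air sacs beside the alveolar epithelium and the capillaries. In the resting state they make a fine matrix and signals for their epithelial neighbours, and those with lipid droplets, called lipofibroblasts, store neutral lipid and retinoids. After injury, fibroblasts of the alveolus can lose this gene programme and take on a matrix-producing state with high collagen, Cthrc1 and Postn. Whole lung tissue was sequenced, so fewer cells of a type and less RNA per cell cannot be told apart in any value given here.

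In these lungs, 2 of the 10 genes were higher in BLM+HBO at the thresholds of the study, a fold change above 1.5 at an unadjusted P below 0.05. They were Inmt, a methyltransferase abundant in lung fibroblasts, at 2.02-fold, and Tcf21, a transcription factor of the lung mesenchyme, at 1.62-fold. None was lower at these thresholds. Over all 17465 genes tested with edgeR's quasi-likelihood test, 3.4% were higher and 2.89% were lower at the same thresholds, 6.29% in all. The groups overlapped in all 10 genes, whereas 8.77% of all genes tested had ranges that did not overlap. Of the 10 genes, 7 had a positive log2 fold change (70%, against 51.2% of all genes tested), and their median log2 fold change was 0.27, against 0.0071 over all genes. After Benjamini-Hochberg adjustment over all genes, edgeR called 0 of the 10 at adjusted P below 0.05, with 2 at unadjusted P below 0.05 (10.7% of all genes tested were). DESeq2 also called 0 after adjustment with 3 below 0.05 unadjusted, and limma-trend called 0 with 2 below 0.05 unadjusted. The lowest adjusted P of any gene by edgeR was 0.423, a value that many of the genes named here share.

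The libraries held between 18157161 and 26365969 counts, and the lowest count of any of the 10 genes in a mouse was 204. All 10 genes passed the filter on low counts. Together they took between 0.171% and 0.326% of the counts of a library. Levels are given as CPM, the reads of a gene relative to the TMM-normalized library size, and the fold change is BLM+HBO over BLM. Levels of different genes are compared only as CPM per kb of exon. On that scale Inmt had the highest mean level of the 10 in both groups, 206 CPM per kb in BLM and 417 in BLM+HBO. Gdf10 had the lowest, 3.80 CPM per kb in BLM and 4.11 in BLM+HBO. In BLM, the order between them was Gpc3 (89.5 CPM per kb), Foxf1 (80.6), Npnt (72.0), Plin2 (54.4), Limch1 (47.2), Adh1 (36.2), Tcf21 (14.5) and Meox2 (8.23).

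The promoters of the 10 genes were read for a pair of motifs, because Tcf21 and Foxf1 are themselves transcription factors that bind DNA. CAGCTG is an E-box of the kind bound by basic helix-loop-helix factors such as Tcf21, and reads the same on both strands. TGTTTAC is a forkhead motif, searched on both strands. The 250 bases before each RefSeq start site (GRCm38.p6) were used for 9 of the 10 genes, which had 12 start sites in all. Foxf1 was not matched. CAGCTG was present in 3 of the 12 windows (25%), against 13% of 32851 windows of the same length over all genes. TGTTTAC was present in 1 of the 12 windows (8.33%), an internal start site of Limch1, against 3.17% of all windows. The 3 stretches with CAGCTG are shown, with the motif in capitals, because they belong to genes that lay on both sides of no change. They are the 30 bases around the site in Inmt (chr6:55174987-55175016, minus strand, 14 bases before the start), Adh1 (chr3:138277382-138277411, plus strand, 191 bases before it) and Plin2 (chr4:86670058-86670087, minus strand, 16 bases before it).
Inmt: aaggagtctggaCAGCTGtgtgggctggct
Adh1: cctgactgagtgCAGCTGagaaaggggaag
Plin2: agcggccccaggCAGCTGggctatcacgtg
The Inmt stretch lies in the first exon of the GENCODE gene, which begins before the RefSeq start, the Adh1 stretch in an intron of a longer GENCODE transcript, and the Plin2 stretch across the start of the gene. A match is a description of the letters, not a site of binding. The mean level was higher in BLM+HBO for Inmt and Adh1 and lower for Plin2, and no CAGCTG was found in the Tcf21 window. Other forms of the E-box were not searched.

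Of the 3 transcription factors, Tcf21 was past the thresholds, Foxf1 had a positive log2 fold change that passed neither limit, and Meox2 was near no change. Tcf21 (ENSMUSG00000045680.8, chr10:22817281-22820174, minus strand, GRCm38) encodes a basic helix-loop-helix factor that marks lipofibroblasts and their precursors. It had 36.9, 45.5, 21.6 and 32.5 CPM in BLM 1 to 4 and 69.5, 40.5 and 56.4 CPM in BLM+HBO 1 to 3. BLM+HBO 1 and BLM+HBO 3 lay above every BLM mouse, and BLM+HBO 2 lay within them. The means were 34.2 ± 9.95 CPM (SD, n = 4) and 55.5 ± 14.5 CPM (SD, n = 3), and the log2 fold change was 0.70 (SE 0.25, 95% interval 0.15 to 1.25, edgeR adjusted P = 0.423). The call rested on single mice. Without BLM+HBO 1 the log2 fold change of Tcf21 was 0.51 (edgeR adjusted P = 0.802), and without BLM 3, the mouse with the lowest level, it was 0.53 (edgeR adjusted P = 0.392), both under the fold limit.

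Foxf1 (ENSMUSG00000042812.5, chr8:121084386-121088144, plus strand) encodes a forkhead factor of the lung mesenchyme that capillary endothelial cells also express. Its levels were 145, 208, 196 and 230 CPM in BLM 1 to 4 and 329, 198 and 252 CPM in BLM+HBO 1 to 3. Again BLM+HBO 1 and BLM+HBO 3 lay above the BLM mice, and BLM+HBO 2 lay within their range. The means were 195 ± 36.4 CPM (SD, n = 4) and 260 ± 66.0 CPM (SD, n = 3). The log2 fold change of Foxf1 was 0.42 (SE 0.20, 95% interval -0.03 to 0.86, edgeR adjusted P = 0.492), which missed both thresholds. Meox2 (ENSMUSG00000036144.6, chr12:37108540-37179534, plus strand), a homeobox gene of the mesoderm, had 27.4, 22.3, 11.2 and 16.9 CPM in BLM and 19.1, 24.5 and 16.8 CPM in BLM+HBO. All 3 BLM+HBO mice lay inside the BLM range, and the log2 fold change was 0.05 with an interval of -0.56 to 0.66 (edgeR adjusted P = 0.964).

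**Figure D1:**
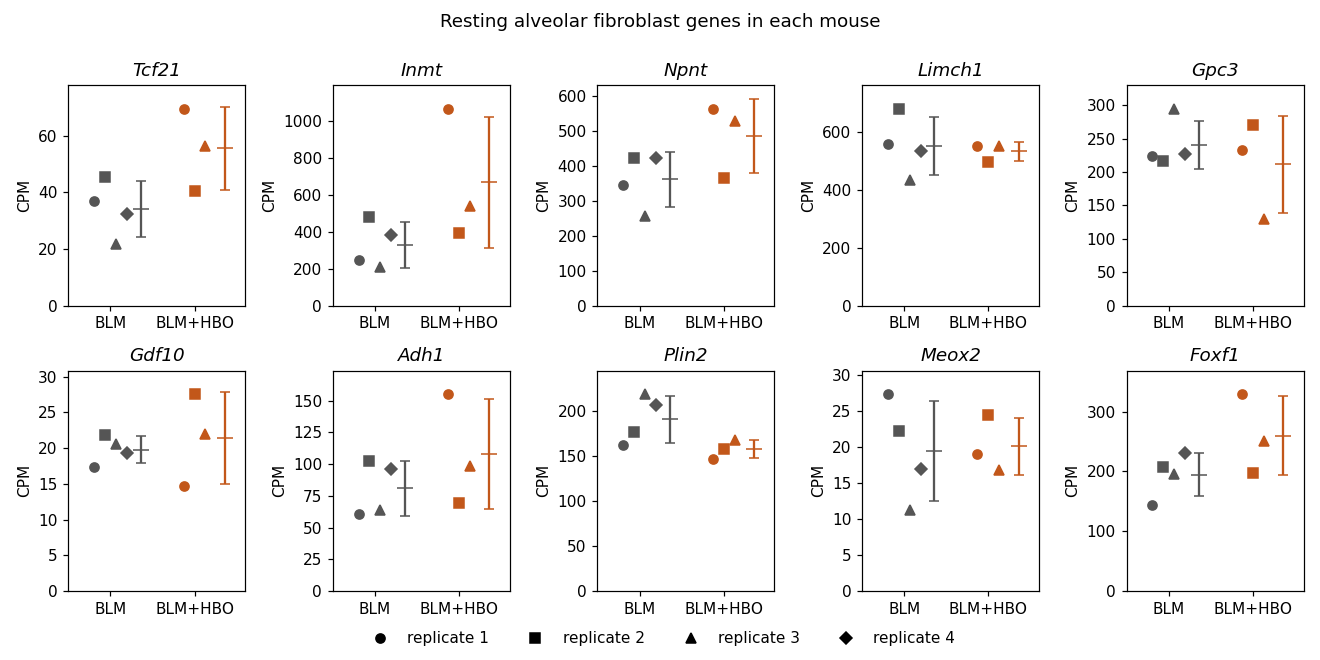
CPM of each of the 10 genes (y axes from 0) in the 4 BLM mice (grey) and 3 BLM+HBO mice (orange), with 1 symbol shape per replicate number and the mean and SD of each group beside the points. BLM+HBO 1 and BLM+HBO 3 lie above every BLM mouse for Tcf21, Inmt, Npnt and Foxf1, and BLM+HBO 2 lies among the BLM mice for these 4 genes.

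Of the 2 enzymes and the lipid droplet protein, Inmt was past the thresholds, and Plin2 had a negative log2 fold change. Inmt (ENSMUSG00000003477.5, chr6:55170626-55175043, minus strand) encodes indolethylamine N-methyltransferase, which methylates tryptamine and related amines. Its levels were 249, 478, 209 and 384 CPM in BLM 1 to 4 and 1067, 393 and 542 CPM in BLM+HBO 1 to 3. BLM+HBO 1 stood far above every other mouse, BLM+HBO 3 was also above the BLM mice, and BLM+HBO 2 was among them. The means were 330 ± 124 CPM (SD, n = 4) and 667 ± 354 CPM (SD, n = 3), with a log2 fold change of 1.02 (SE 0.36, 95% interval 0.20 to 1.83, edgeR adjusted P = 0.424). Without BLM+HBO 1 the log2 fold change of Inmt was 0.50 (edgeR unadjusted P = 0.139, adjusted P = 0.802), which missed both thresholds. Without BLM 1 it was 0.90 (edgeR unadjusted P = 0.0511, adjusted P = 0.713). Without BLM 3 it was 0.85 (edgeR unadjusted P = 0.0519, adjusted P = 0.421). In the fits without BLM 1 or BLM 3, the fold change stayed above 1.5 and only the P limit was narrowly missed. With no filter on low counts, the adjusted P of Inmt was 0.0218 by edgeR, the only setting in which 1 of the 10 genes passed after adjustment.

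Adh1 (ENSMUSG00000074207.10, chr3:138260991-138290698, plus strand), an alcohol dehydrogenase that oxidizes retinol, had 60.8, 102, 64.0 and 96.3 CPM in BLM and 155, 69.6 and 98.8 CPM in BLM+HBO. Only BLM+HBO 1 lay above the BLM range. The log2 fold change was 0.42 (SE 0.27, 95% interval -0.20 to 1.03, edgeR adjusted P = 0.611), and without BLM+HBO 1 it was 0.060. Plin2 (ENSMUSG00000028494.12, chr4:86648386-86670060, minus strand) encodes a coat protein of lipid droplets, used as a lipofibroblast marker and also expressed by macrophages and alveolar type 2 cells. It had 162, 177, 219 and 207 CPM in BLM 1 to 4 and 147, 158 and 168 CPM in BLM+HBO 1 to 3. Here BLM+HBO 1 and BLM+HBO 2 lay below the BLM mice and BLM+HBO 3 lay just inside their range. The means were 191 ± 26.1 CPM (SD, n = 4) and 158 ± 10.2 CPM (SD, n = 3), and the log2 fold change was -0.28 (SE 0.13, 95% interval -0.56 to 0.0086, edgeR adjusted P = 0.475). Of 10 macrophage marker genes 6 were lower and 1 was higher in BLM+HBO, with values given further on, and their part in the Plin2 level was not tested.

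Of the matrix, surface and cytoskeletal proteins, Npnt had a positive log2 fold change, whereas the intervals of Gpc3 and Limch1 lay widely on both sides of 0. Npnt (ENSMUSG00000040998.18, chr3:132881745-132950291, minus strand) encodes nephronectin, a basement membrane ligand of the integrin that contains the Itga8 chain. Its levels were 344, 423, 256 and 423 CPM in BLM and 564, 367 and 528 CPM in BLM+HBO. The order of the BLM+HBO mice was that of Tcf21, Inmt and Foxf1, with BLM+HBO 1 highest, BLM+HBO 3 next and BLM+HBO 2 among the BLM mice. The log2 fold change of Npnt was 0.43 (SE 0.21, 95% interval -0.04 to 0.89, edgeR adjusted P = 0.499). It passed both thresholds in the fit without BLM+HBO 2, where it was 0.59 (edgeR adjusted P = 0.185).

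Gpc3 (ENSMUSG00000055653.13, chrX:52272426-52613950, minus strand) encodes glypican 3, a heparan sulfate proteoglycan of the cell surface. Its levels were 224, 216, 295 and 228 CPM in BLM and 233, 271 and 130 CPM in BLM+HBO. BLM+HBO 3 had the lowest level of all 7 mice and the other 2 lay within the BLM range. The log2 fold change of -0.19 (95% interval -0.70 to 0.33, edgeR adjusted P = 0.800) became 0.064 without BLM+HBO 3. Limch1 (ENSMUSG00000037736.20, chr5:66745827-67057158, plus strand), which encodes an actin- and myosin-associated protein, had 558, 681, 435 and 535 CPM in BLM and 551, 495 and 552 CPM in BLM+HBO. All 3 BLM+HBO mice lay within the BLM range, and the log2 fold change was -0.05 (95% interval -0.40 to 0.30, edgeR adjusted P = 0.933), with the sign turned by library size scaling alone (0.0042) and without BLM 2 (0.065).

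The secreted ligand of the list, Gdf10 (ENSMUSG00000021943.7, chr14:33923587-33937983, plus strand), belongs to the TGF-beta superfamily. It had 17.3, 21.9, 20.5 and 19.4 CPM in BLM and 14.7, 27.6 and 21.9 CPM in BLM+HBO. BLM+HBO 1 lay below the BLM mice and BLM+HBO 2 above them, an order unlike that for Tcf21 and Inmt. BLM+HBO 3, at 21.94 CPM, was barely above the highest BLM mouse, BLM 2, at 21.87 CPM. The log2 fold change was 0.12 (95% interval -0.33 to 0.56, edgeR adjusted P = 0.868), and it was -0.11 without BLM+HBO 2. Limch1, Adh1 and Foxf1 share 62, 136 and 98 exon bases with an antisense gene, and the counting used no strand, so reads in these bases could not be assigned to either gene.

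Counted by mouse, the BLM+HBO mice were not alike. BLM+HBO 1 lay above the BLM range for 5 of the 10 genes, within it for 3 and below it for 2. BLM+HBO 3 lay above it for 5, though only barely for Gdf10, within it for 4 and below it for 1. BLM+HBO 2 lay above it for 1, within it for 8 and below it for 1. The shares of all genes tested in these positions were not computed, so the counts per mouse have no such background beside them. Pairs of mice were compared over genes with 20 or more counts per pair by a chi-square per gene, larger where counts differ more. It was 13.01 to 34.28 between BLM+HBO 2 and the BLM mice, and 22.12 to 45.01 among the BLM mice. Against BLM it was 63.66 to 110.5 for BLM+HBO 1 and 50.48 to 114.6 for BLM+HBO 3. Against BLM+HBO 2 these mice had 64.33 and 57.54. The split between BLM+HBO 2 and the other BLM+HBO mice was therefore not confined to the 10 genes. The summed level of the 10 genes was 1825, 2375, 1727 and 2171 CPM in BLM 1 to 4 and 3150, 2045 and 2365 CPM in BLM+HBO 1 to 3. Only BLM+HBO 1 exceeded every BLM mouse in this sum. Without BLM+HBO 2, 4 of the 10 genes were past the thresholds, namely Tcf21, Inmt, Npnt and Adh1, in a fit where 1914 of all 17879 genes were, 946 of them higher. Without BLM+HBO 1 or without BLM 3 none of the 10 was.

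**Figure D2:**
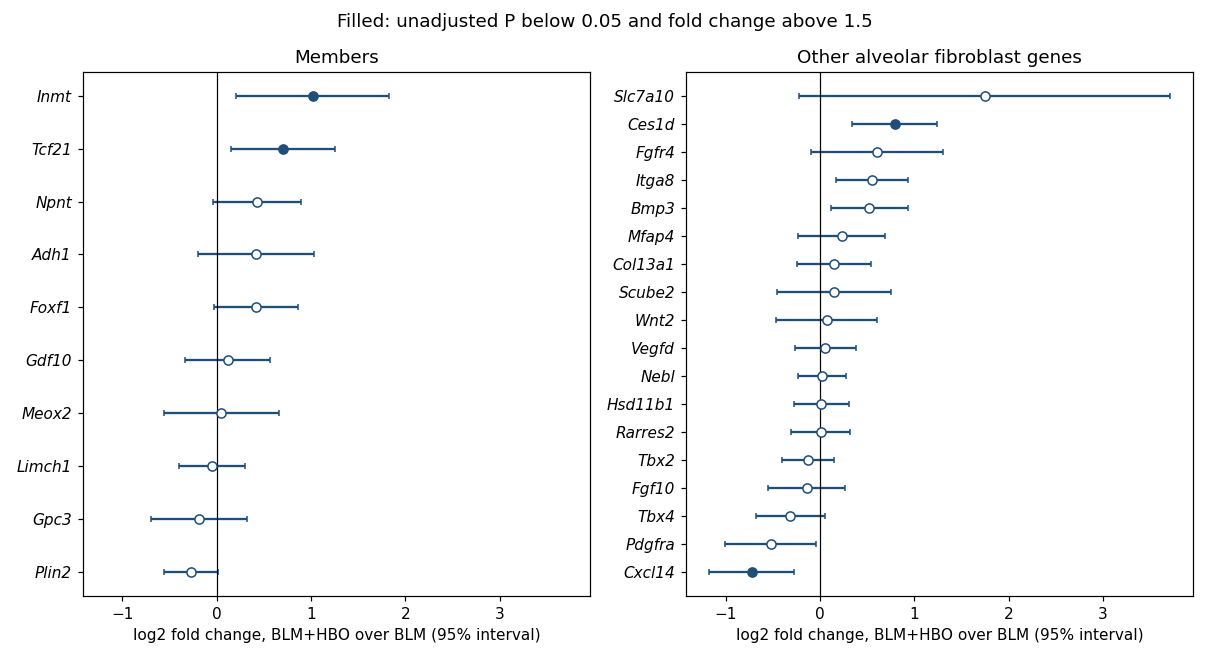
Log2 fold change of BLM+HBO over BLM with its 95% interval (edgeR, 4 against 3 mice) for the 10 genes (left) and 18 further alveolar fibroblast genes (right), with filled points past both thresholds. Inmt and Tcf21 on the left and Ces1d on the right are filled above 0, and Cxcl14 is filled below 0.

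In a second list of 18 alveolar fibroblast genes, none of them among the 10, 1 was higher and 1 was lower at the thresholds, shares near those of all genes tested (3.4% and 2.89%), and the median log2 fold change was 0.06. The higher gene was Ces1d, a carboxylesterase that hydrolyses lipid esters. Its level was 193, 305, 259 and 311 CPM in BLM and 524, 345 and 521 CPM in BLM+HBO. All 3 BLM+HBO mice were above all 4 BLM mice, with a log2 fold change of 0.79 (SE 0.20, edgeR adjusted P = 0.423). The lower gene was the chemokine gene Cxcl14. It lay between 291 and 296 CPM in the 4 BLM mice and was 115, 233 and 186 CPM in the BLM+HBO mice, with no overlap and a log2 fold change of -0.72 (SE 0.20, edgeR adjusted P = 0.423). Itga8, the receptor chain for the Npnt product, was at 88.3, 104, 69.1 and 92.1 CPM in BLM and at 162, 114 and 113 CPM in BLM+HBO. Its groups did not overlap, and its log2 fold change of 0.55 (SE 0.17, edgeR adjusted P = 0.423) was under the fold limit. Bmp3, a TGF-beta superfamily ligand related to Gdf10, had a log2 fold change of 0.52 (SE 0.18, edgeR adjusted P = 0.423), also under the fold limit. Pdgfra went the other way by a like amount, with a log2 fold change of -0.52 (SE 0.21, edgeR adjusted P = 0.447). At edgeR's unadjusted P below 0.05, 3 of the 18 genes were higher and 2 were lower, where 10.7% of all genes tested passed in either direction.

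Of 16 lipid and retinoid genes of lipofibroblasts tested, 1 was higher and 2 were lower at the thresholds, with a median log2 fold change of -0.13. Over all genes tested, 3.4% were higher and 2.89% were lower. Aldh1a1, which makes retinoic acid, the step after Adh1, had 491, 480, 590 and 425 CPM in BLM and 1014, 553 and 798 CPM in BLM+HBO. BLM+HBO 1 and BLM+HBO 3 were above the BLM mice and BLM+HBO 2 was within them, with a log2 fold change of 0.67 (SE 0.20, edgeR adjusted P = 0.423). Pth1r, the receptor of parathyroid hormone-related protein on lipofibroblasts, was lower, with a log2 fold change of -0.76 (SE 0.30, edgeR adjusted P = 0.440). Stra6, a retinol transporter, was lower by the same thresholds (log2 fold change -1.12, SE 0.49, edgeR adjusted P = 0.467) at a mean of 1.25 CPM in BLM. Aldh1a3, a second retinoic acid enzyme, was at -0.96 (edgeR adjusted P = 0.487).

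At the thresholds, which 3.4% of all genes tested passed as higher, 1 of 7 hedgehog pathway genes was higher. This was the ligand Shh, which the epithelium makes, at 8.92, 15.9, 19.1 and 17.6 CPM in BLM and 29.3, 18.9 and 35.3 CPM in BLM+HBO (log2 fold change 0.86, SE 0.27, edgeR adjusted P = 0.423). BLM+HBO 1 and BLM+HBO 3 again lay above the BLM mice. Of the Gli transcription factors of the receiving mesenchyme, none was past the thresholds, and their signs differed. The log2 fold change was -0.58 for Gli3 (edgeR adjusted P = 0.467), -0.51 for Gli2 (edgeR adjusted P = 0.502) and 0.26 for Gli1 (edgeR adjusted P = 0.609). Hhip, the decoy receptor, was at 0.46 (edgeR adjusted P = 0.596).

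No measure of fibrosis per mouse was analysed here, so matrix genes of the same libraries stood in for it. The matrix index was the mean log2 CPM of Col1a1, Col1a2, Col3a1, Col5a2, Fn1, Postn, Cthrc1, Tnc and Timp1, collagens and other genes of fibrotic matrix, none of them among the 10. It was 9.94, 9.32, 9.24 and 9.13 in BLM 1 to 4 and 7.12, 9.17 and 8.05 in BLM+HBO 1 to 3. BLM+HBO 1 and BLM+HBO 3 were the lowest of the 7, and BLM+HBO 2 lay among the BLM mice, just above BLM 4. Of the 9 index genes, 7 were lower in BLM+HBO at the thresholds. Col1a1 had 3133, 2234, 2177 and 1766 CPM in BLM 1 to 4 and 318, 1806 and 910 CPM in BLM+HBO 1 to 3 (log2 fold change -1.20, SE 0.47, edgeR adjusted P = 0.440).

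**Figure D3:**
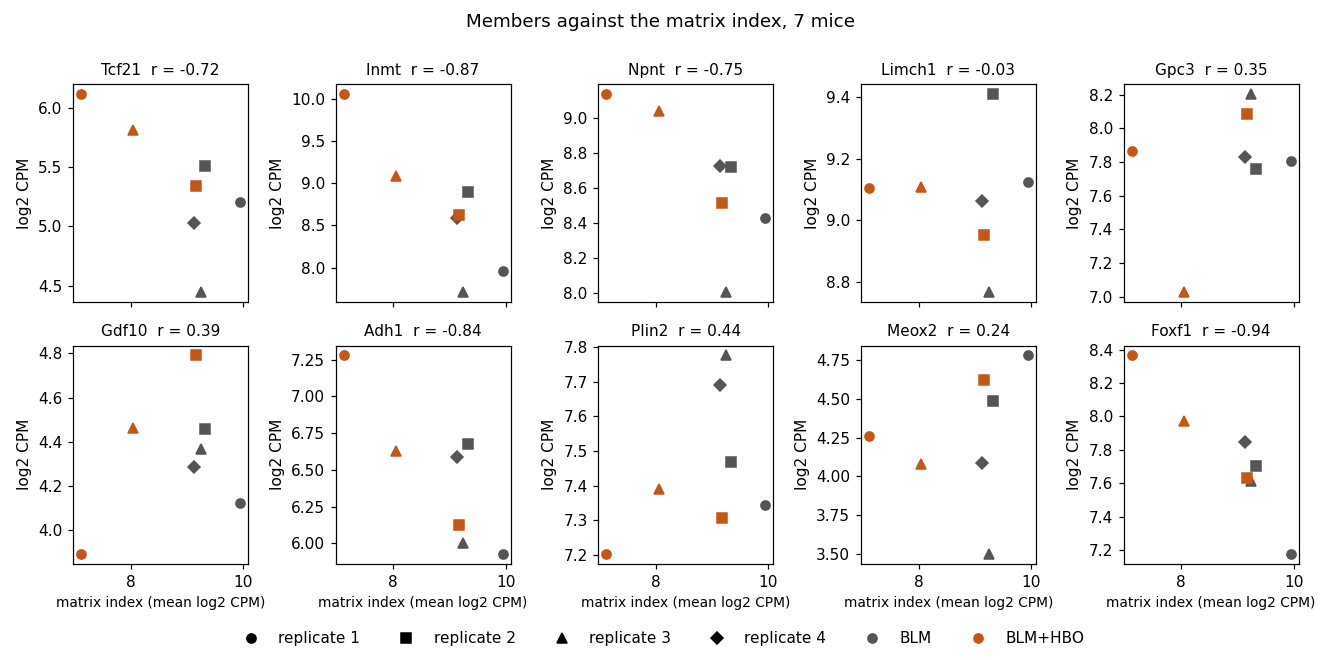
Log2 CPM of each of the 10 genes (y axes) against the matrix index, the mean log2 CPM of 9 matrix genes (x axes), in the 4 BLM (grey) and 3 BLM+HBO mice (orange), with Pearson's r over 7 mice. Foxf1 (r = -0.94) is highest in BLM+HBO 1 and BLM+HBO 3 at the left and lowest in BLM 1 at the right. For Tcf21, Inmt, Npnt and Adh1, r is weaker or of the other sign without BLM+HBO 1 and BLM+HBO 3 at the left.

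Across the 7 mice, 5 of the 10 genes had a Pearson's r with the index of -0.72 or below, and the other 5 had r between -0.03 and 0.44. The share of all genes tested with such an r was not computed, so it is not known whether this count is unusual. Of the 10, Foxf1 followed the index most closely, with r = -0.94 (two-sided exact permutation P = 0.00139, 0.0139 adjusted over the 10 genes) and Spearman's rho = -0.89 (exact permutation P = 0.0123, adjusted 0.123). Without BLM+HBO 1 and BLM+HBO 3, the mice farthest from the median index, the r of Foxf1 over 5 mice was -0.94 (exact permutation P = 0.0583). Among these 5, BLM 1 stood apart, with an index of 9.94 and a Foxf1 log2 CPM of 7.18. The rest had an index of only 9.13 to 9.32 and a Foxf1 log2 CPM of 7.61 to 7.85. The r with BLM 1 left out as well was not computed. BLM 1, the mouse with the highest index, had the lowest Foxf1 level, and BLM+HBO 1, with the lowest index, had the highest.

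The other 4 did not pass after adjustment. Inmt had r = -0.87 (exact permutation P = 0.0139, adjusted 0.0503) and rho = -0.68 (exact permutation P = 0.110, adjusted 0.347), and r was -0.42 without BLM+HBO 1 and BLM+HBO 3. Adh1 had r = -0.84 (exact permutation P = 0.0151, adjusted 0.0503) and rho = -0.64 (exact permutation P = 0.139, adjusted 0.347), and r was -0.49 without them. Npnt had r = -0.75 (exact permutation P = 0.0429, adjusted 0.107) and rho = -0.82 (exact permutation P = 0.0341, adjusted 0.171), and r was -0.12 without them. Tcf21 had r = -0.72 (exact permutation P = 0.0724, adjusted 0.145) and rho = -0.54 (exact permutation P = 0.236, adjusted 0.471), and r turned to 0.18 without them. For these 4 genes the relation therefore rested on the same pair of mice. The r of Limch1 was -0.03, of Meox2 0.24, of Gpc3 0.35, of Gdf10 0.39 and of Plin2 0.44, with the lowest adjusted exact permutation P of these at 0.524.

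The relation was not tested within a group, since neither had 6 mice, and the index was lowest in 2 of the 3 BLM+HBO mice. A fit with both the index and the treatment as terms was not made. The permutations exchanged mice across the 2 groups, so their P values cannot tell a relation per mouse from a difference between the groups. Leaving out 1 mouse at a time kept the r of Foxf1 between -0.97 and -0.87, but its adjusted exact permutation P rose to 0.439 when BLM+HBO 1 was left out and to 0.0972 when BLM+HBO 3 was, and was 0.0694 without BLM 4 and 0.0833 without BLM 1. With Col1a1 alone in place of the index, Foxf1, Inmt and Adh1 passed after adjustment, with r of -0.93, -0.89 and -0.85. All values of both axes came from the same libraries.

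Marker genes of the activated fibroblast state stood opposite to Inmt and Tcf21. Of 13 such genes, 10 were lower in BLM+HBO at the thresholds (2.89% of all genes tested were) and none was higher (3.4% were). Their median log2 fold change was -1.09, and 6 of the 13 are also in the matrix index. This median depended on single mice, at -1.74 without BLM+HBO 2 and -0.71 without BLM+HBO 1. Acta2, smooth muscle actin, had 457, 410, 439 and 290 CPM in BLM and 178, 314 and 215 CPM in BLM+HBO (log2 fold change -0.76, SE 0.22, edgeR adjusted P = 0.423). Runx1, a transcription factor, was at -0.61 (SE 0.19, edgeR adjusted P = 0.423), Lox, which crosslinks collagen, at -1.37 (SE 0.45, edgeR adjusted P = 0.423) and Cthrc1 at -1.16 (SE 0.41, edgeR adjusted P = 0.423). Their summed level was between 5899 and 9554 CPM in BLM and was 1900, 5859 and 3263 CPM in BLM+HBO 1 to 3. The lowest sums were therefore in the 2 mice with the highest Tcf21 and Inmt. Of 8 adventitial fibroblast genes 2 were lower, Cd248 and Dcn, and of 7 pericyte genes none passed, with medians of -0.12 and -0.15.

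**Figure D4:**
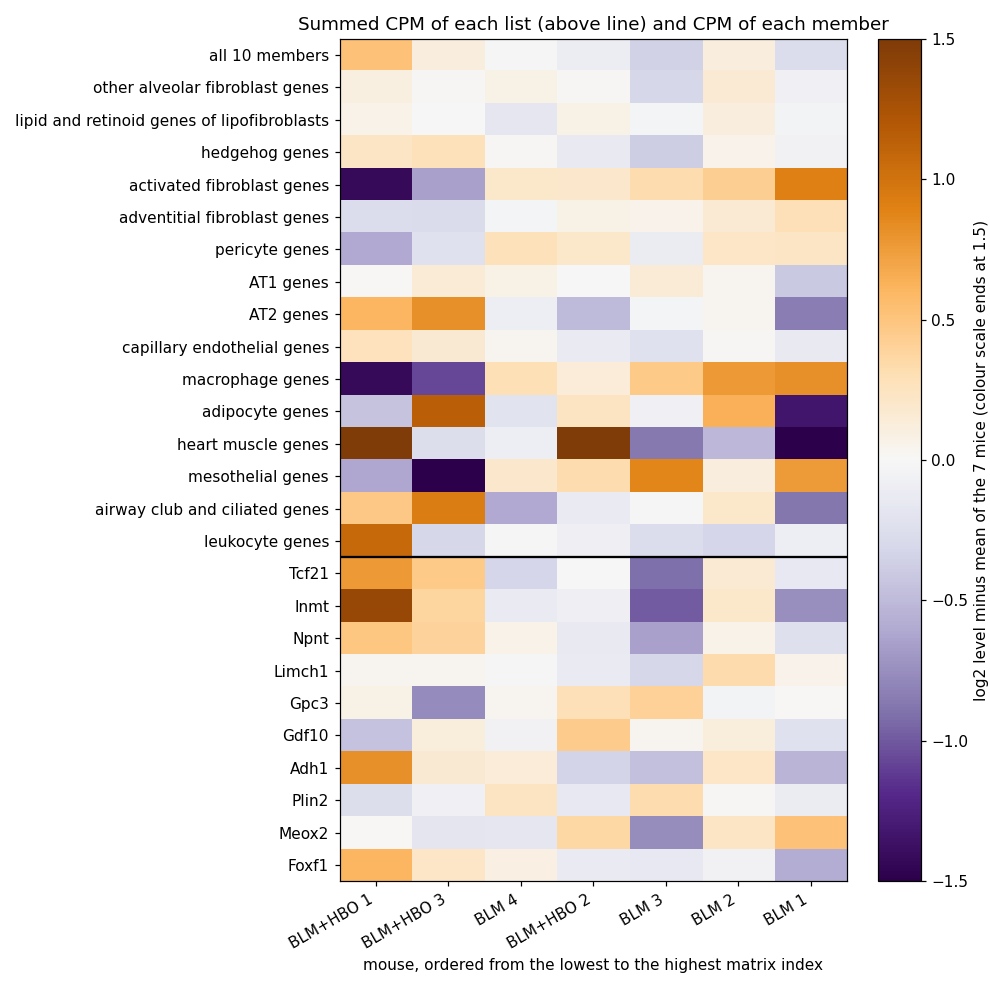
Summed CPM of each gene list (above the line) and CPM of each of the 10 genes (below it) in each mouse, as the log2 difference from the mean of the 7 mice, with mice ordered by the matrix index from lowest to highest. BLM+HBO 1 and BLM+HBO 3, at the left, are high for Tcf21, Inmt, Npnt and Foxf1 and low for the activated fibroblast and macrophage genes, and BLM+HBO 2 lies between BLM 4 and BLM 3.

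Markers of other lung cells were read in the same way, beside 3.4% higher and 2.89% lower over all genes tested. Of 10 macrophage genes, 6 were lower in BLM+HBO and 1 was higher, with Marco (log2 fold change -2.06, edgeR adjusted P = 0.423), Fabp4 (-0.63, edgeR adjusted P = 0.423) and Trem2 (-0.73, edgeR adjusted P = 0.423) among the lower. The higher gene was Krt79, a keratin gene of alveolar macrophages, named after its values were seen (log2 fold change 2.09, edgeR adjusted P = 0.423). Its level was low, at 0.50 to 1.13 CPM in BLM and 2.24, 0.91 and 8.85 CPM in BLM+HBO 1 to 3, with BLM+HBO 2 within the BLM range. The macrophage list summed to 4878 to 6973 CPM in BLM and 1481, 4353 and 1891 CPM in BLM+HBO 1 to 3, and the abundant gene Spp1 made up most of the sum in each BLM mouse, for example 4952 of 6973 CPM in BLM 1. Of 7 alveolar type 2 genes 1 was higher, Sftpa1, but all 7 had a positive log2 fold change, and they summed to between 8833 and 16153 CPM in BLM and to 23990, 11203 and 27660 CPM in BLM+HBO. Of 8 capillary endothelial genes 1 was higher, Tmem100, with sums of 2529 to 3028 CPM in BLM and 3541, 2713 and 3310 CPM in BLM+HBO. These type 2 and capillary sums were highest in BLM+HBO 1 and BLM+HBO 3, as were Tcf21, Inmt, Npnt and Foxf1. Of 8 alveolar type 1 genes none passed, with sums of 4196 to 6135 CPM in BLM and 5524 to 6175 CPM in BLM+HBO. The part of other cells in the levels of the 10 genes was not tested.

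Lists for tissue outside the alveolus were set beside the same shares of all genes tested, 3.4% higher and 2.89% lower. Of 8 heart muscle genes 7 were higher in BLM+HBO, with Mb, Actc1, Ttn and Myh6 at the lowest P. The 8 genes summed to 58.9 to 169 CPM in BLM and to 629, 508 and 150 CPM in BLM+HBO 1 to 3. BLM+HBO 2 was high here and BLM+HBO 3 was not, unlike in Tcf21 and Inmt. Of 5 mesothelial genes 2 were lower, Msln and Wt1, with sums of 422 to 715 CPM in BLM and 126 to 488 CPM in BLM+HBO. Of 6 airway genes 2 were higher, Cyp2f2 and Scgb1a1, with sums of 5604 to 11889 CPM in BLM and 9405 to 19654 CPM in BLM+HBO. Of 7 leukocyte genes the B cell genes Cd79a and Ms4a1 were higher, with sums of 208 to 258 CPM in BLM and 211 to 549 CPM in BLM+HBO. Of 6 adipocyte genes 3 passed the filter and none was past the thresholds, with sums of 1.98 to 7.78 CPM in BLM and 3.67 to 11.02 CPM in BLM+HBO. The fat cell gene Lep had no count in 6 of the 7 mice, and none of the listed markers was at 0 in all mice. The part of these tissues in the levels of the 10 genes was not tested.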

How the data were processed

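Lung RNA of 4 BLM and 3 BLM+HBO mice was analysed from the raw read counts per gene that the authors deposited, made with HISAT2 and featureCounts on GRCm38. Counting used no strand and left out reads that overlap several genes, so shared bases lower a gene's count. The exon length per gene, another deposited column, was used only for CPM per kb. No value column was left without a mouse. Symbols came from GENCODE vM21, matched without the version, for 55141 of 55401 genes (54349 in the same version). The sources used here do not say whether the libraries of a group came from separate batches. Each mouse counted as 1 replicate.

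Low counts were removed by filterByExpr at its defaults (10 for a gene's minimum, 15 in total), and the rest tested with edgeR 4.0.16 (quasi-likelihood, TMM, no robust option) under R 4.3.3, with P values adjusted by Benjamini-Hochberg over all 17465 genes. DESeq2 1.42.0 and limma 3.58.1 were alternatives. Log2 CPM used a prior count of 2. Permutation P values were exact over the 5040 pairings of 7 mice (120 for 5 mice). The fit was also run on 5 simulated sets of this comparison, each with 200 changed genes. On average 93.9% of those genes passed the thresholds, with 2.22% of the other genes. The fold change set for those genes is not given here, so both shares describe the simulated sets only. The share of true differences that the fit finds in the real mice was not tested. The 10 genes and all lists were chosen with earlier results of these data known. The genes named were the 10, the index genes and up to 4 genes per other list with the lowest P. Pdgfra, Gli1, Krt79, Spp1 and Lep were named outside this rule. Other alternatives were normalization factors, filters, robust fitting, a replicate block, stricter thresholds, other indices and leaving out each mouse. Promoter sequences are RefSeq's for GRCm38.p6.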

Additional observations from a re-analysis of the deposited data

Results flagged for a closer look

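Within the BLM group, the log2 CPM of each of the 10 genes and the matrix index were examined for a mouse set apart from the other 3 by its gap to the nearest of them over the range of the group. Of these 11 groups of values, 1 was above Dixon's 95% critical value for 4 mice. This was Gpc3, where BLM 3 had 295 CPM and the other BLM mice had between 216 and 228 CPM, a ratio of 0.838. Chance flags about 1 group of values in 20. BLM 3 also had the lowest Tcf21, Inmt, Npnt, Limch1 and Meox2 levels of the 7 mice.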

How the results depend on the processing

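The count of genes past the thresholds was 1098 over all genes, 1940 with no filter on low counts, 319 at P below 0.01 and 0 at adjusted P below 0.05. Leaving out each mouse moved it between 659 (without BLM+HBO 1) and 1914 (without BLM+HBO 2), with 706 without BLM 1. At adjusted P below 0.05, edgeR called 387 genes with no filter and 267 without BLM+HBO 2, and DESeq2 called 128. Among the 10 genes, 2 were past the thresholds, Tcf21 and Inmt, and the same 2 genes passed in each of the 9 fits with another tool, factor, filter, robust setting or block. Leaving out each mouse gave between 0 and 4 of them, 0 without BLM 3 or BLM+HBO 1 and 1 (Tcf21) without BLM 1. The adjusted P of Tcf21 lay between 0.0505 and 0.802 over its alternatives, and that of Inmt between 0.0218 and 0.802. Over the comparison lists, the count was 40, and 19 to 64 on leaving out each mouse. Of the 10 genes, 1 passed against the index (Foxf1), 3 with Col1a1 alone, 3 with the collagens alone, and 0 to 4 on leaving out each mouse.

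The sign of the log2 fold change turned for Limch1 (0.0042 by library size alone, 0.065 without BLM 2, range on leaving out each mouse -0.15 to 0.065), Gpc3 (0.064 without BLM+HBO 3, range -0.41 to 0.064), Gdf10 (-0.11 without BLM+HBO 2, range -0.11 to 0.32) and Meox2 (-0.14 without BLM 3, -0.011 without BLM 4, -0.12 without BLM+HBO 2, range -0.14 to 0.26). The r with the index turned for Limch1 (0.14 without BLM 3, positive also when BLM+HBO 1 or BLM+HBO 2 was left out, range -0.31 to 0.14), Gdf10 (-0.40 without BLM+HBO 1, range -0.40 to 0.69) and Meox2 (-0.044 without BLM 1, range -0.044 to 0.63). The cause was not tested. Other factors moved the median of all genes by at most 0.06 on the log2 scale.

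No pairing of the mice by replicate number was seen, though so few mice cannot exclude it. Deviations of same-numbered mice from their group means had r of -0.01, -0.07 and 0.16. With the number as a replicate block, 1258 genes and the same 2 of the 10 were past the thresholds, with log2 fold changes of 0.71 for Tcf21 (edgeR adjusted P = 0.435) and 1.08 for Inmt (edgeR adjusted P = 0.438). With 4 and 3 mice, the intervals of the 8 genes that did not pass leave both directions or small changes undecided.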
